A study of Homo sapiens with 6 samples.

Results

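Aminoacyl-tRNA synthetases attach each amino acid to its own transfer RNA and so supply the ribosome with charged tRNA. Human cells keep separate nuclear genes for the enzymes of the cytosol and for those imported into mitochondria. The study examined here treated 2 castration-resistant prostate cancer cell lines with inhibitors of the chaperone HSP70, and 37 genes of this family were followed through it, 21 cytosolic and 16 mitochondrial, of 60658 identifiers in all. The members were taken as a fixed list of symbols, which was chosen with earlier results of these data known. The cytosolic group holds 19 genes for enzymes or their subunits and the scaffold proteins AIMP1 and AIMP2. The aspartyl enzymes are not analysed here.

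C4-2B MDVR, an enzalutamide-resistant derivative of C4-2B maintained in medium with 20 µM enzalutamide, and CWR22Rv1, maintained in the same medium without the drug, were each treated for 48 h with DMSO, with apoptozole (APO, 10 µM) or with VER155008 (VER, 10 µM). Polyadenylated RNA was sequenced, with 1 library for each of the 6 conditions. The source label of the first line reads LNCaP-C4-2B and the cell type label of both lines reads parental, while the titles name C4-2B MDVR, which was followed. Without replicates no difference could be set against replicate spread, and p-values are left out. Values are FPKM, fragments scaled to transcript length and library size, so that levels of different genes can be set side by side. Fold changes are on the scale of log2(FPKM + 0.1), the inhibitor library less the DMSO library from its line. Genes above 0.1 FPKM in at least 1 library of the line were compared, and all 37 members passed. A gene is called higher or lower when it differs by more than 1.2-fold, the threshold of the study. That threshold is passed by most expressed genes, so each count is given beside the share of all compared genes called in that direction. APO and VER of a line share 1 DMSO library, and an error in it would move both comparisons. In bulk RNA, fewer cells in a given state and less RNA per cell cannot be told apart.

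Depth is not given in read totals. Ratios of low FPKM values put the relative depth of the libraries between 1 (C4-2B MDVR, DMSO) and 1.67 (C4-2B MDVR, APO). All 5 prostate luminal markers were found in each library, with a summed level of 288 to 821 FPKM, lowest in the C4-2B MDVR APO library. The 6 markers of immune, fibroblast and endothelial cells summed to 4.03 to 10.9 FPKM, and PECAM1 was listed at 0 throughout. Transcripts of the mitochondrial chromosome in C4-2B MDVR took between 14.8% and 16.4% of the summed FPKM. In CWR22Rv1 the share was 25.7% with DMSO, 25.7% with VER and 10.4% with APO.

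In each line the summed level of the cytosolic genes was higher, and that of the mitochondrial genes lower, with either inhibitor than with DMSO. The summed level of the cytosolic members in C4-2B MDVR cells was 1609 FPKM with DMSO and reached 2729 with APO and 2342 with VER. The mitochondrial members of the same libraries summed to 413, 310.5 and 293 FPKM. In CWR22Rv1 cells the cytosolic sum was 1388 FPKM with DMSO and reached 2521 with APO and 1585 with VER. Here too the mitochondrial sum was highest with DMSO, at 423 FPKM, against 328 with APO and 298 with VER. The ratio of the sums was thus 3.89 and 3.28 with DMSO in the respective lines. It was 8.79 and 7.70 with APO, and 8.0 and 5.31 with VER. Every inhibitor library lay above both DMSO libraries in this ratio.

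**Figure D1:**
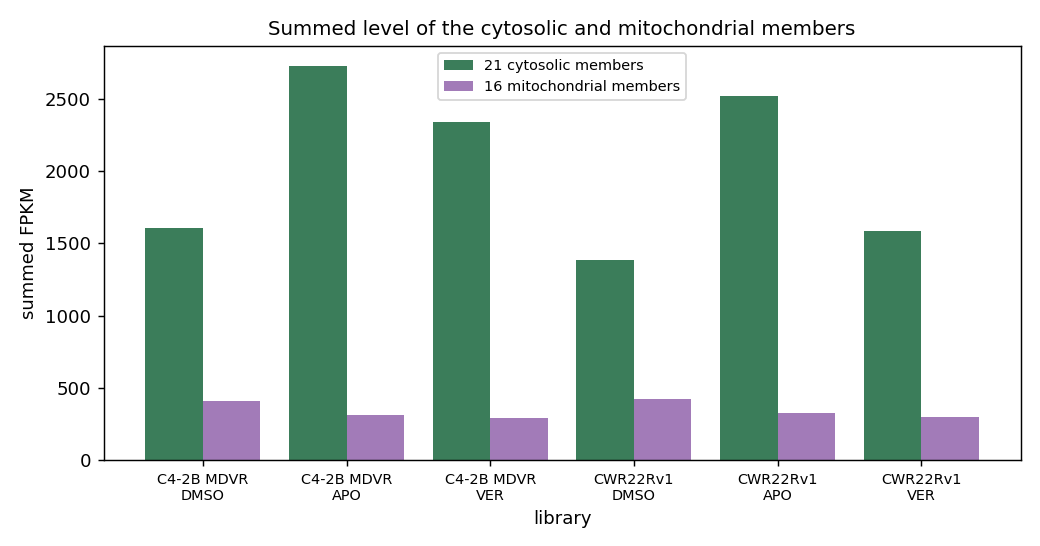
Summed FPKM (vertical axis, from 0) of the 21 cytosolic and 16 mitochondrial members in each of the 6 libraries, 1 library per condition and no error bar. The cytosolic sum runs from 1388 to 2729 FPKM and is higher with either inhibitor than with DMSO in both lines, while the mitochondrial sum runs from 293 to 423 FPKM and is lower with either inhibitor.

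With APO in C4-2B MDVR cells 12 of the 21 cytosolic genes were higher, against 37.7% of all compared genes, and 4 were lower, against 35.4%. None of the 16 mitochondrial genes was higher and 10 were lower. The median log2 fold change was 0.55 for the cytosolic and -0.39 for the mitochondrial group, a difference of 0.94, beside a median of 0 over all compared genes. With VER in the same line 11 cytosolic genes were higher (35.6% of all compared genes) and 4 lower (34.9%), while 12 mitochondrial genes were lower and none higher. The medians were 0.35 and -0.47.

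In CWR22Rv1 cells APO gave 14 higher cytosolic genes (35.6% of all compared genes) and 3 lower ones (39.2%), with a median of 0.78. The mitochondrial group was more divided there, with 7 genes lower and 3 higher and a median of -0.23. A share of 43.8% lower lies close to the 39.2% of all compared genes. This median depends on the scaling, in a library whose share of mitochondrial transcripts was less than that of its control: with all libraries set to the same sum without the genes of the mitochondrial chromosome it was -0.38 and 11 genes were lower, while 45.0% of all compared genes were lower on that scale and the median of genes above 1 FPKM was -0.17. With the same sum including them (TPM) the mitochondrial median was -0.11. The smallest cytosolic median was that of VER in CWR22Rv1 cells. Here 7 of the 21 were higher, a share of 33.3% that is near the 32.1% of all compared genes, and 5 were lower, against 32.3%. Of the mitochondrial genes 12 were lower and none higher, and the medians were 0.20 and -0.41. These counts depend on the scaling too. With libraries rescaled by the ratio of a typical gene, 10 cytosolic genes were higher, NARS1 and YARS1 among them, beside 34.0% of all compared genes. On that scale 10 mitochondrial genes were lower, beside 30.3%. With the same sum, including or without the mitochondrial chromosome, 7 cytosolic genes were higher, beside 29.0% and 29.4%.

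Changes past 2-fold were mostly those of cytosolic genes that were higher. More than 2-fold higher were 7 cytosolic genes with APO in C4-2B MDVR cells (15.4% of all compared genes), 6 with VER (14.4%), 7 with APO in CWR22Rv1 cells (13.8%) and 1 with VER (10.8%). Mitochondrial genes past it were RARS2, more than 2-fold higher with APO in CWR22Rv1 cells, and LARS2 with APO and SARS2 with VER, more than 2-fold lower in that line. Lower by more than 2-fold were 16.8% and 8.92% of all compared genes in those comparisons. On the cytosolic side VARS1 with VER in CWR22Rv1 cells was the single gene lower by this margin. The members are well expressed, between 2.58 and 361 FPKM, so the shares were also taken over well-expressed genes. Among genes with a mean above 5 FPKM, 33.9% and 31.2% were higher than 1.2-fold with APO and VER for C4-2B MDVR and 35.7% and 25.3% in CWR22Rv1 cells. In the other direction the shares were 32.5%, 32.6%, 34.3% and 29.0%.

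**Figure D2:**
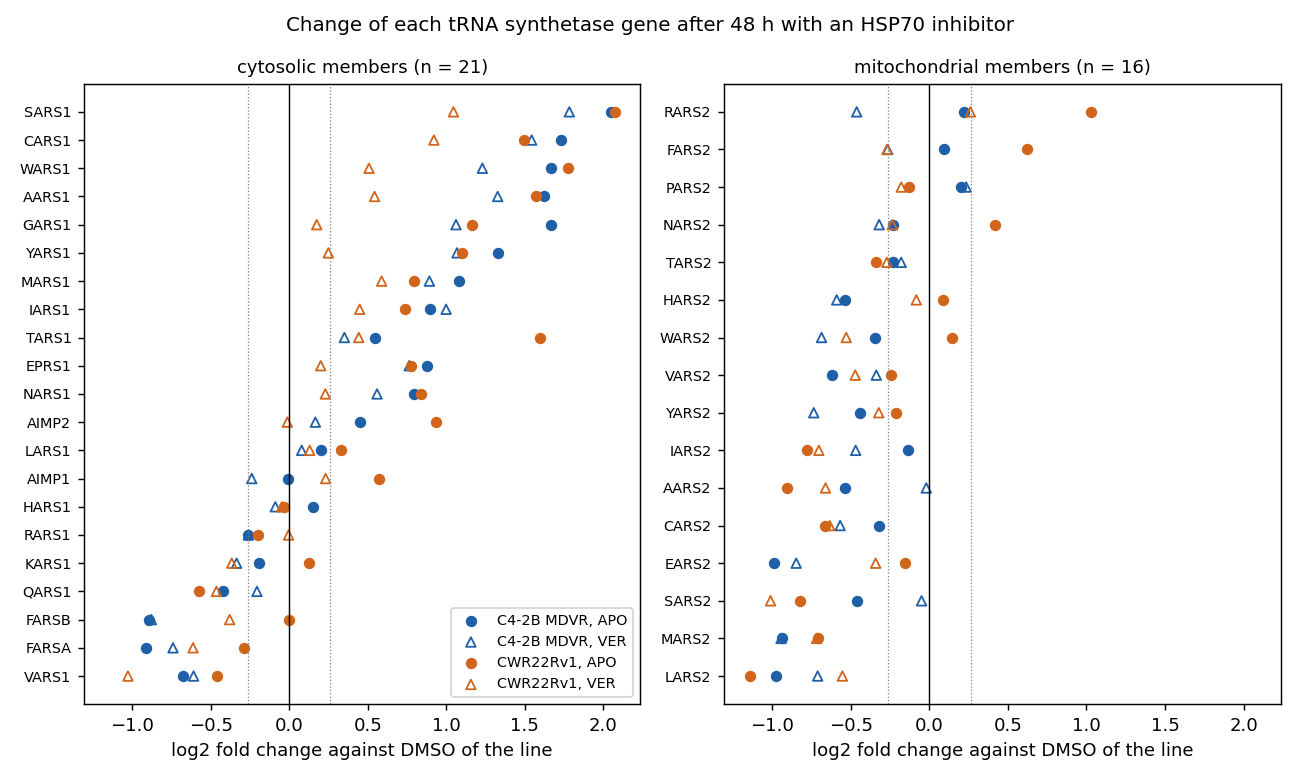
Log2 fold change against the DMSO library of the same line (horizontal axis) for each cytosolic (left) and mitochondrial (right) member, with filled circles for APO, open triangles for VER, blue for C4-2B MDVR and orange for CWR22Rv1. Dotted lines mark 1.2-fold. SARS1, at the top left, lies between 1.05 and 2.07, whereas LARS2, at the bottom right, lies between -1.14 and -0.55.

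The members with the largest increases, ranked by their smallest value over the 4 comparisons, were cytosolic. SARS1 (ENSG00000031698, chromosome 1 from 109213918 to 109238169 of GRCh38) charges tRNA with serine and also provides the serine from which selenocysteine is made. Its level in C4-2B MDVR cells was 87.2 FPKM with DMSO and reached 361 with APO and 300.5 with VER, and in CWR22Rv1 cells it was 73.8, 311 and 152 FPKM. These are log2 fold changes of 2.05, 1.78, 2.07 and 1.05. Both inhibitor libraries of each line exceeded both DMSO libraries. Only 4.21% and 5.31% of compared genes in C4-2B MDVR cells and 3.48% and 10.2% in CWR22Rv1 cells had a larger increase.

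CARS1, the cysteinyl enzyme on chromosome 11 from 3000922 to 3057613, was at 18.6, 61.9 and 54.4 FPKM with DMSO, APO and VER for C4-2B MDVR and at 21.8, 61.7 and 41.3 FPKM in CWR22Rv1 cells. It was the lowest of the cytosolic genes in both DMSO libraries, and with APO it stood near 62 FPKM in either line. AARS1, the alanyl enzyme on chromosome 16 from 70252295 to 70289543, was at 63.9, 197 and 160.4 FPKM in C4-2B MDVR cells and at 73.9, 219.6 and 108 FPKM in CWR22Rv1 cells. Its log2 fold changes were 1.62, 1.33, 1.57 and 0.54. As for SARS1, the increase with VER in CWR22Rv1 cells was the smallest of the 4.

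WARS1, the tryptophanyl enzyme on chromosome 14 from 100333788 to 100376805, is also known as a gene induced by interferon gamma. It was at 86.2, 274 and 202 FPKM in C4-2B MDVR cells and at 47.9, 164 and 68.2 FPKM in CWR22Rv1 cells. Log2 fold changes were 1.67, 1.23, 1.78 and 0.51. Of a list of 7 interferon genes, CXCL10 was listed at 0 in all libraries and IDO1 in all but the C4-2B MDVR APO library. The medians of the list were 1.29, 0.77, 0.48 and 0.42, over 6, 6, 5 and 5 genes above the filter. IRF1, the transcription factor through which interferon acts, was at 1.53, 9.39 and 4.09 FPKM in C4-2B MDVR and at 1.04, 2.08 and 1.42 FPKM in CWR22Rv1 cells. Its part in the change of WARS1 was not tested.

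GARS1 and YARS1 behaved alike, with large changes in 3 comparisons and values under 1.2-fold in the fourth. GARS1, whose transcripts encode both the cytosolic and the mitochondrial glycyl enzyme, was at 102, 325 and 214 FPKM in C4-2B MDVR cells and at 112, 252 and 127 FPKM in CWR22Rv1 cells. YARS1, the tyrosyl enzyme, was at 55.2, 139 and 116 FPKM and at 61.7, 132 and 73.3 FPKM. The log2 fold changes of VER in CWR22Rv1 were 0.18 and 0.25. TARS1, the threonyl enzyme, was at 91.3, 133 and 117 FPKM in C4-2B MDVR cells and at 46.6, 141 and 63.3 FPKM in CWR22Rv1 cells, log2 fold changes with APO of 0.55 and 1.60. The APO libraries of both lines were close, and the DMSO libraries were not. NARS1, the asparaginyl enzyme, had log2 fold changes of 0.80, 0.56, 0.84 and 0.23.

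**Figure D3:**
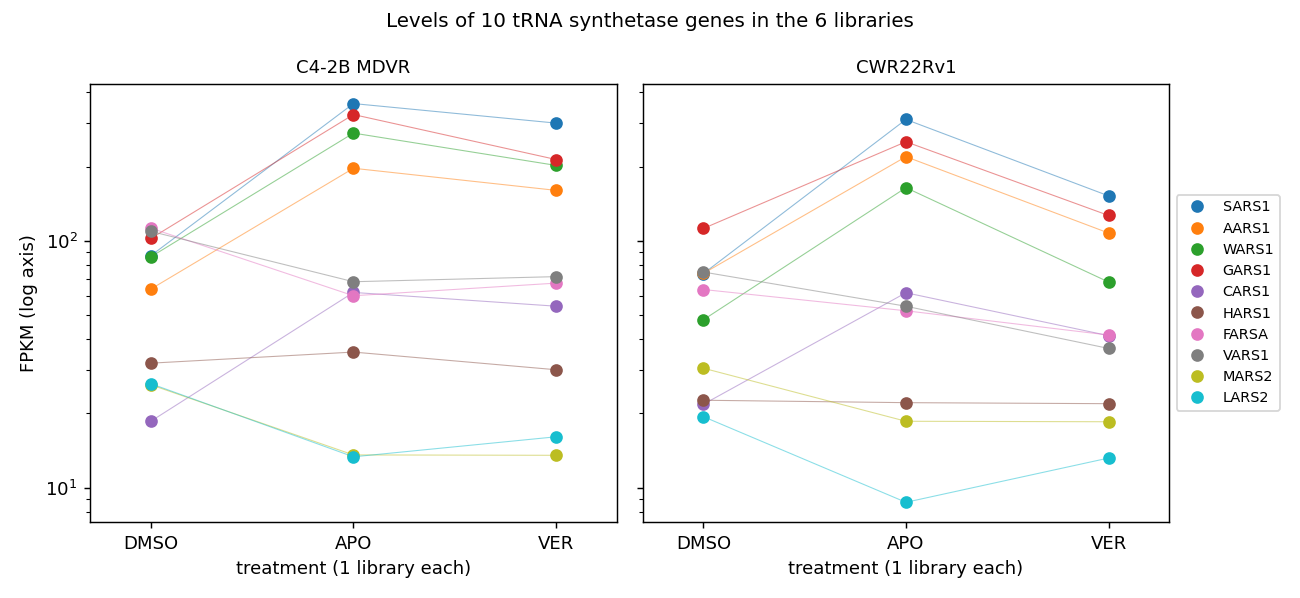
FPKM on a log axis of 10 members with DMSO, APO and VER in C4-2B MDVR (left) and CWR22Rv1 cells (right), 1 library per point, with thin lines that join the points of a gene. SARS1 is at 87.2 FPKM with DMSO in C4-2B MDVR cells and at 361 FPKM with APO, HARS1 stays between 21.9 and 35.5 FPKM over all libraries, and LARS2 goes from 19.4 to 8.72 FPKM with APO in CWR22Rv1 cells.

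The increase was not shared by the whole cytosolic group. FARSA and FARSB encode the subunits of the phenylalanyl enzyme, a heterotetramer, and neither was called higher in any comparison. FARSA was at 113, 60.0 and 67.5 FPKM in C4-2B MDVR cells and at 63.6, 52.1 and 41.6 FPKM in CWR22Rv1 cells. FARSB was at 43.2, 23.2 and 23.5 FPKM in C4-2B MDVR cells and at 27.1, 27 and 20.8 FPKM in CWR22Rv1 cells, where APO gave nearly the level of DMSO. The ratio of FARSA to FARSB stayed between 1.93 and 2.88 over all libraries. VARS1, the valyl enzyme, which binds elongation factor eEF1, was at 109, 68.4 and 71.7 FPKM in C4-2B MDVR cells and at 74.8, 54.4 and 36.7 FPKM in CWR22Rv1 cells. Each inhibitor library was lower than its DMSO library, with log2 fold changes of -0.68, -0.61, -0.46 and -1.03. FARSA with APO in CWR22Rv1 cells, at -0.29, came to -0.17 when libraries were set to the same sum (TPM).

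HARS1, the histidyl enzyme, was at 32.0, 35.5 and 30.1 FPKM in C4-2B MDVR cells and at 22.6, 22.1 and 21.9 FPKM in CWR22Rv1 cells, below 1.2-fold in each comparison. RARS1, the arginyl enzyme, was at 52.7, 44.0 and 44.0 FPKM and at 48.1, 42.0 and 48.0 FPKM. Its log2 fold changes with APO, -0.26 and -0.20, became -0.42 and -0.35 on the scale without the mitochondrial chromosome.

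Several cytosolic enzymes are held together in the multisynthetase complex by AIMP1 and AIMP2. Its 9 members in the list had lower medians than the 12 cytosolic genes outside it in each comparison, 0.20 against 1.06 and 0.08 against 0.81 with APO and VER for C4-2B MDVR, and 0.57 against 1.13 and 0.13 against 0.24 in CWR22Rv1 cells. Members of the complex differed in direction. MARS1 and IARS1, the methionyl and isoleucyl enzymes, were higher in each comparison, and EPRS1, the bifunctional glutamyl-prolyl enzyme, in all but VER in CWR22Rv1, where its log2 fold change was 0.20. MARS1 was at 88.1, 187 and 164 FPKM in C4-2B MDVR cells and at 102, 178 and 154 FPKM in CWR22Rv1 cells. IARS1 was at 60.3, 112 and 121 FPKM and at 84.7, 141 and 116 FPKM, and EPRS1 at 64.7, 119 and 110.1 FPKM and at 78.9, 135 and 90.7 FPKM. Of the other enzymes of the complex LARS1 alone was called higher, with APO in CWR22Rv1 cells.

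QARS1, the glutaminyl enzyme and the most abundant synthetase transcript of both DMSO libraries, was at 188, 141 and 163 FPKM in C4-2B MDVR cells and at 137, 91.9 and 99.1 FPKM in CWR22Rv1 cells. With APO in C4-2B MDVR cells it stood below SARS1, GARS1 and WARS1, among others. KARS1, which like GARS1 serves cytosol and mitochondria, had log2 fold changes of -0.19, -0.33, 0.13 and -0.37. LARS1, the leucyl enzyme, known also as a leucine sensor for mTORC1, had values of 0.20, 0.08, 0.33 and 0.13. Of the scaffolds, AIMP2 was at 114, 156 and 128 FPKM in C4-2B MDVR cells and at 86.7, 166 and 86.0 FPKM in CWR22Rv1 cells, so that it was higher with APO and not with VER. AIMP1 was at 22.8, 22.6 and 19.3 FPKM and at 43.9, 65.4 and 51.6 FPKM, with a call only for APO in CWR22Rv1 cells (0.57).

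MARS1 lies on chromosome 12 from 57475445 to 57517569 beside DDIT3, which encodes the stress factor CHOP and is read from the opposite strand. The annotated exons of both share 355 bases, 5.05% of those of MARS1. DDIT3 was at 18.5, 437 and 185 FPKM in C4-2B MDVR cells and at 49.3, 753 and 125 FPKM in CWR22Rv1 cells. It is not stated whether strand was used in quantification, and the part of DDIT3 reads in the values of MARS1 was not tested. AIMP2 shares 532 exonic bases, 28.9% of its own, with EIF2AK1 on the opposite strand. EIF2AK1 lay between 50.1 and 57.6 FPKM in all 6 libraries. In all, 13 members share exonic bases with another protein-coding gene, 12 of them with one on the opposite strand. HARS1 and HARS2 stand head to head on chromosome 5 and overlap by 437 bases.

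ATF4 is a transcription factor of the integrated stress response that binds, with partners of the C/EBP family, an element with the core TGATGNAA. This core was searched on both strands in the promoter windows of RefSeq (GRCh38.p14, 250 bases before to 50 after each start). Windows were found for 32 of the 37 members, and none for LARS1, VARS1, YARS1, AARS2 and VARS2. The core was in a window of 7 of the 18 cytosolic genes (38.9%) and 1 of the 14 mitochondrial genes (7.14%), beside 4.46% of all 27305 genes of the table and 3.62% of its windows. The 8 matches are shown with the bases around them, 5′ to 3′ on the strand of the gene, with the core or its reverse complement TTNCATCA in capitals.
AARS1: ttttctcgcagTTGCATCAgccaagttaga
CARS1: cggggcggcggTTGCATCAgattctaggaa
GARS1: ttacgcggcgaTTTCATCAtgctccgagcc
IARS1: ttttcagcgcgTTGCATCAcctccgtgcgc
MARS1: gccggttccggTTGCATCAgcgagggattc
NARS1: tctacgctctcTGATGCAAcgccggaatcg
TARS1: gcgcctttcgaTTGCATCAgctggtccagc
YARS2: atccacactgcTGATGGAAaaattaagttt

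Of the cytosolic matches 5 hold the identical 8 letters TTGCATCA, and NARS1 holds their reverse complement. In CARS1 (chr11:3057407-3057436, minus strand), IARS1 (chr9:92293692-92293721, minus strand) and MARS1 (chr12:57488053-57488082, plus strand) the match begins 2, 13 and 4 bases before the start site. In TARS1 (chr5:33440956-33440985, plus strand) and NARS1 (chr18:57621804-57621833, minus strand) it begins at base 3 and base 15 of the transcript. For GARS1 (chr7:30594834-30594863, plus strand) the distance is 33 bases, in 1 of its windows. Those of AARS1 (chr16:70289675-70289704, minus strand) and of YARS2 (chr12:32756076-32756105, minus strand) lie 187 and 197 bases before the start. These starts are those of the promoter windows and can differ from the gene coordinates given above. For MARS1 the window runs from 57487818 to 57488117, inside the gene, whose coordinates begin at 57475445. A match is a description of letters and not of binding.

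The 7 cytosolic genes with the core had median log2 fold changes of 1.08 and 1.0 with APO and VER for C4-2B MDVR and of 1.17 and 0.45 in CWR22Rv1 cells. For the 11 without it the medians were -0.01, -0.21, 0.13 and -0.01. The groups overlapped. SARS1 and WARS1 have no match in their windows and were among the highest, and FARSA, FARSB, KARS1 and QARS1 have none either. YARS2, the tyrosyl enzyme of mitochondria, was at 35.1, 25.8 and 21 FPKM in C4-2B MDVR cells and at 23.6, 20.3 and 18.9 FPKM in CWR22Rv1 cells, and its value with APO in the latter (-0.21) did not pass 1.2-fold.

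A list of 10 genes of the integrated stress response outside the family was also followed, ATF4 and its well-known targets among them. All 10 were higher in each comparison. Of all compared genes 37.7% and 35.6% were higher with APO and VER for C4-2B MDVR and 35.6% and 32.1% in CWR22Rv1 cells. The medians of the list were 3.26 and 2.91 with APO and VER for C4-2B MDVR and 2.76 and 0.98 in CWR22Rv1 cells. VER in CWR22Rv1 cells gave the smallest median for this list and for the cytosolic synthetases alike. The list was written with results of these data known and is no independent support.

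Enzymes for mitochondrial tRNA charge the transfer RNAs encoded by the mitochondrial chromosome, which serve the translation of respiratory chain subunits. LARS2, MARS2 and CARS2 were lower than with DMSO by more than 1.2-fold for each inhibitor in each line. The share of all compared genes lower in each of the 4 comparisons is not given here. The set depends on the scaling. With the same sum (TPM) IARS2 was added to it, and with the same sum without the mitochondrial chromosome EARS2, IARS2, VARS2 and YARS2 were added. LARS2, the leucyl enzyme on chromosome 3 from 45388506 to 45549421, was at 26.4, 13.3 and 16.1 FPKM with DMSO, APO and VER for C4-2B MDVR and at 19.4, 8.72 and 13.2 FPKM in CWR22Rv1 cells. MARS2, the methionyl enzyme on chromosome 2 from 197705369 to 197708387, was at 26.1, 13.6 and 13.5 FPKM and at 30.5, 18.6 and 18.5 FPKM. Both were lowest in inhibitor libraries, and for MARS2 APO and VER gave nearly equal levels in each line. The cysteinyl enzyme CARS2 was at 23.9, 19.2 and 16.1 FPKM and at 38.2, 24.0 and 24.6 FPKM.

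EARS2, the glutamyl enzyme, was at 41.3, 20.8 and 22.9 FPKM in C4-2B MDVR cells and at 16.8, 15.1 and 13.3 FPKM in CWR22Rv1 cells, so that its level with an inhibitor in the first line stayed above that with DMSO in the second. HARS2 had log2 fold changes of -0.54 and -0.59 with APO and VER for C4-2B MDVR and of 0.09 and -0.08 in CWR22Rv1 cells. IARS2, the most abundant mitochondrial enzyme in each library, was at 96.5, 87.7 and 69.6 FPKM and at 130.1, 75.9 and 79.8 FPKM. AARS2, the alanyl enzyme, was lower with APO in both lines, at -0.54 and -0.91, and with VER in CWR22Rv1 cells (-0.66), but not in C4-2B MDVR cells (-0.02). SARS2 showed the same pattern, with -0.46 and -0.82 for APO and -0.05 and -1.01 for VER. SARS2 shares 46.2% of its exonic bases with an overlapping gene on its strand that was at or under 0.121 FPKM, and VARS2 shares 22% of its own with GTF2H4.

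Only RARS2, FARS2 and NARS2 were called higher in any comparison, in each case with APO in CWR22Rv1 cells. RARS2, the arginyl enzyme, was at 3.60, 4.2 and 2.58 FPKM in C4-2B MDVR cells and at 12.7, 26 and 15.2 FPKM in CWR22Rv1 cells. FARS2, the phenylalanyl enzyme, which works as a single chain, was at 11.9, 12.7 and 9.89 FPKM and at 12.4, 19.1 and 10.3 FPKM. NARS2 had a log2 fold change of 0.42 in that comparison and of -0.23, -0.32 and -0.24 in the others. PARS2, the prolyl enzyme, was at 5.87, 6.76 and 6.92 FPKM and at 5.99, 5.46 and 5.28 FPKM, below 1.2-fold in each comparison. TARS2, VARS2, WARS2 and YARS2 had log2 fold changes from -0.74 to 0.14, of which the value above 0 was that of WARS2 with APO in CWR22Rv1 cells.

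For 13 amino acids the list holds 1 cytosolic and 1 mitochondrial enzyme. The log2 fold change of the cytosolic enzyme was above that of its mitochondrial counterpart in 11 of the pairs for APO and 12 for VER in C4-2B MDVR cells, and in 10 and 11 in CWR22Rv1 cells. The median difference was 1.18, 1.35, 1.51 and 0.71. With APO it was widest for serine, where SARS1 exceeded SARS2 by 2.51 in C4-2B MDVR cells and by 2.90 in CWR22Rv1 cells. For alanine the ratio of AARS1 to AARS2 was 7.58 and 8.15 in the DMSO libraries of the lines and 34.2 and 45.9 in those with APO. Valine was the exception in every comparison, with the change of VARS1 less that of VARS2 between -0.55 and -0.06. Arginine ran the other way in 3 of the 4 comparisons and histidine in 1, both with small changes of the cytosolic enzyme.

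**Figure D4:**
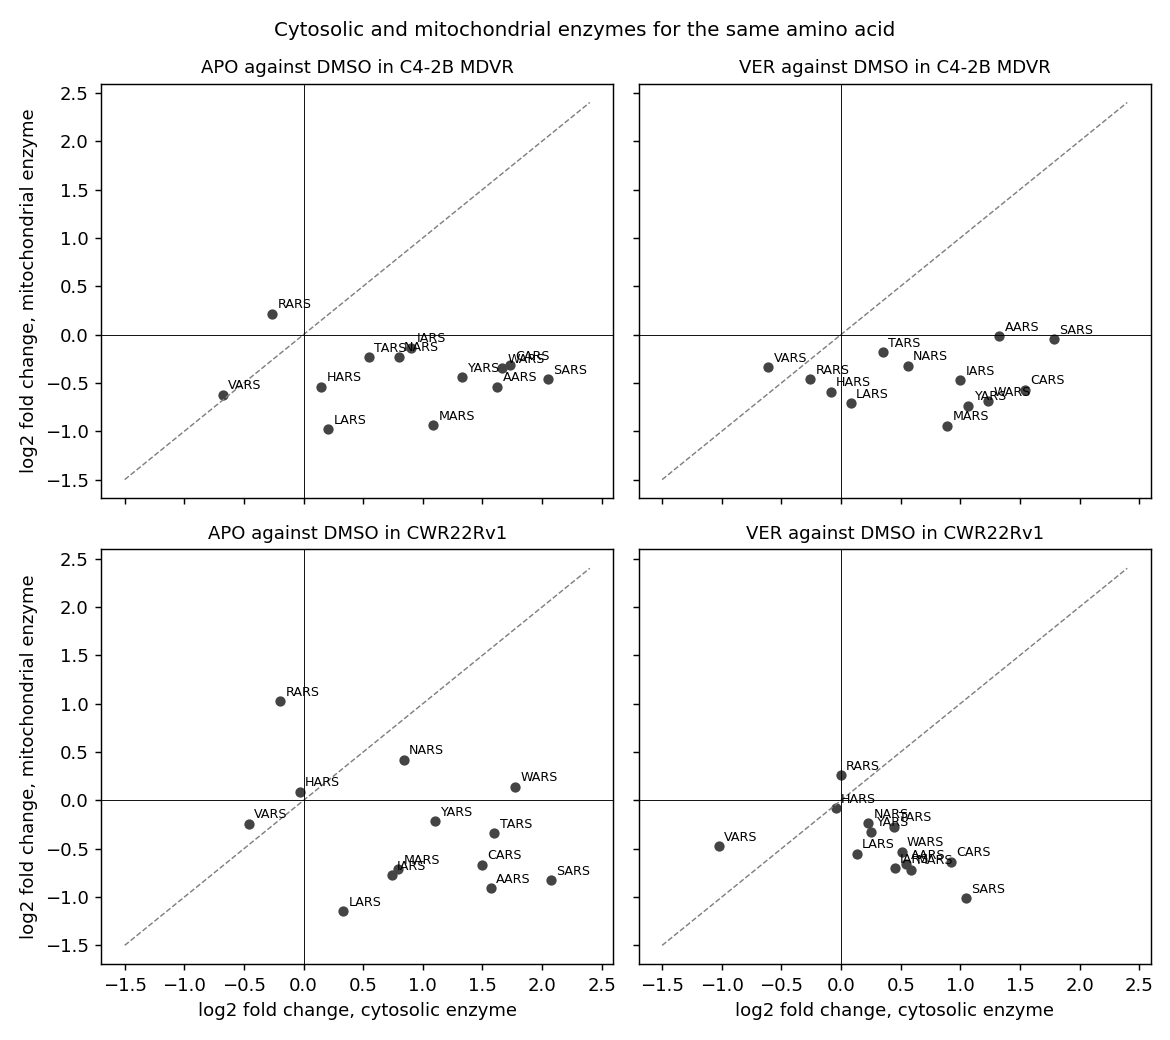
Log2 fold change of the mitochondrial enzyme (vertical axis) against that of the cytosolic enzyme for the same amino acid (horizontal axis), 13 pairs in each of the 4 comparisons, labelled by the gene stem and with a dashed line at equal change. Most points lie below the line, 11, 12, 10 and 11 of 13, with VARS above it in each panel.

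Synthetases fall into class I and class II by the fold of their catalytic domain. In the cytosol the 9 class I genes had medians of 0.90, 0.89, 0.74 and 0.25 and the 9 class II genes of 0.55, 0.35, 0.84 and 0.18. Among mitochondrial enzymes of the C4-2B MDVR cells 7 of 9 of class I and 3 of 7 of class II were lower with APO (35.4% of all compared genes), with medians of -0.44 and -0.23. With VER they were 9 of 9 and 3 of 7 (34.9%), with medians of -0.69 and -0.18. With APO in CWR22Rv1 cells the classes were close, 4 of 9 and 3 of 7 (39.2%), with medians of -0.24 and -0.13. With VER in CWR22Rv1 cells they were 8 of 9 and 4 of 7 (32.3%), with medians of -0.53 and -0.27.

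APO and VER were used at the same dose and time, and their libraries can be set against each other without the DMSO library. In C4-2B MDVR cells the cytosolic genes were close, with 4 of 21 lower with VER than with APO (32.5% of all compared genes) and none higher (28.5%), and a median log2 difference of -0.19. GARS1 had the largest difference, at -0.61, and no member passed 2-fold in either direction, beside 8.68% of all compared genes higher and 10.5% lower by that margin. In CWR22Rv1 cells 16 of 21 were lower with VER (34.5% of all compared genes) and none was higher (37.3%), with a median of -0.57. More than 2-fold lower were WARS1 (-1.27), TARS1 (-1.16), AARS1 (-1.03) and SARS1 (-1.03), while 10.5% of all compared genes were lower and 15.6% higher by that margin. Mitochondrial genes were split in C4-2B MDVR cells, 4 higher and 5 lower, and in CWR22Rv1 cells 1 was higher and 4 were lower, with medians of -0.03 and -0.14. LARS2 was the mitochondrial gene higher with VER there (0.59). With 1 library of each, no interval of these differences can be given.

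**Figure D5:**
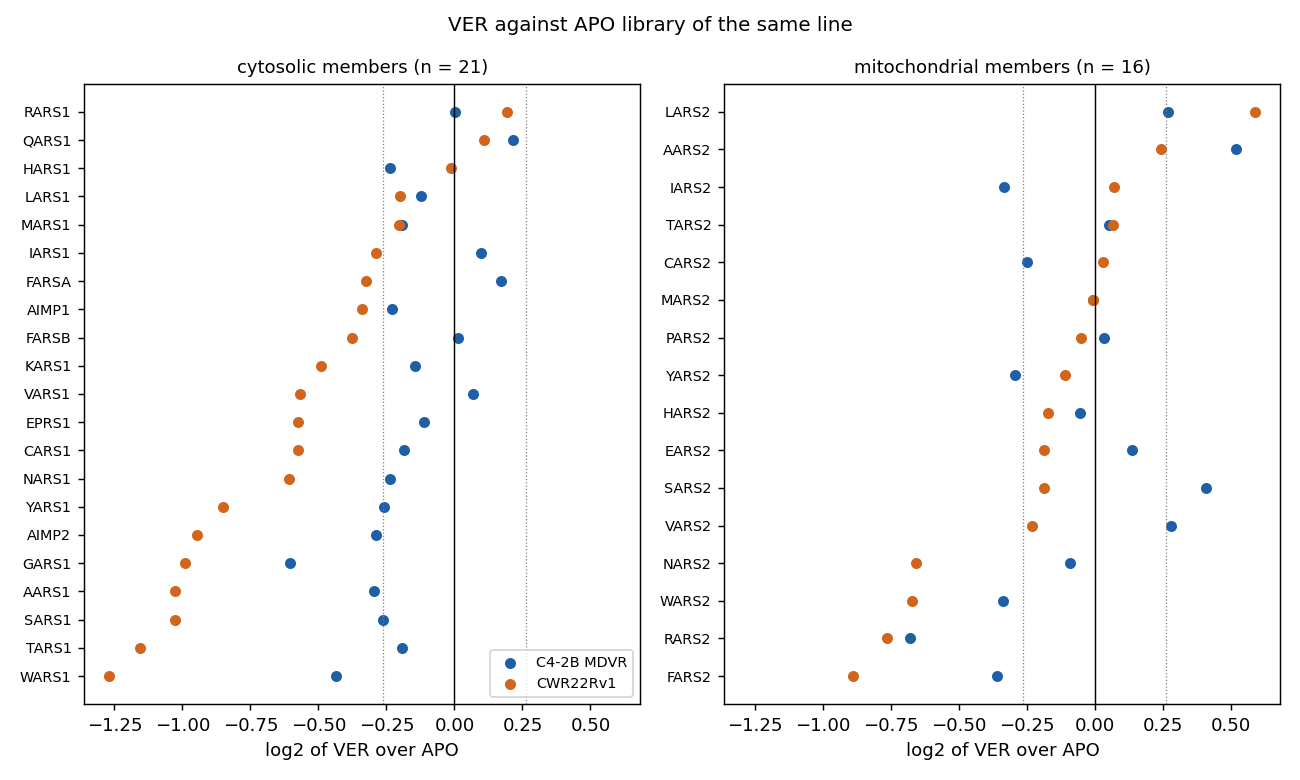
Log2 of the VER over the APO library (horizontal axis) for each cytosolic (left) and mitochondrial (right) member, in C4-2B MDVR (blue) and CWR22Rv1 cells (orange), with dotted lines at 1.2-fold. The cytosolic points of CWR22Rv1 reach from -1.27 to 0.19 and those of C4-2B MDVR from -0.61 to 0.22.

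The DMSO libraries of the lines were also set against each other. In the CWR22Rv1 DMSO library 9 cytosolic genes were lower than in that of C4-2B MDVR (39.2% of all compared genes) and 3 were higher (43.2%), with a median log2 difference of -0.13. TARS1 (-0.97), WARS1 (-0.85), FARSA (-0.83), KARS1 (-0.74) and FARSB (-0.67) were furthest below, and AIMP1 (0.94) furthest above. Of the mitochondrial genes 5 were lower and 5 higher. The extremes of the family were RARS2 at 1.79 and EARS2 at -1.29, the only members past 2-fold, beside 27.2% of all compared genes higher and 19.4% lower by that margin. Lines and single libraries cannot be told apart here.

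A list of 12 accessory genes of tRNA charging was also followed. With APO in C4-2B MDVR cells 2 were higher and 3 lower, beside 37.7% and 35.4% of all compared genes, and with VER again 2 and 3, beside 35.6% and 34.9%. In CWR22Rv1 cells 4 were higher and 2 lower with APO, beside 35.6% and 39.2%, and 1 and 2 with VER, beside 32.1% and 32.3%. DTD1, which removes D-amino acids from tRNA, was at 26.2, 52.6 and 37.7 FPKM in C4-2B MDVR cells and at 37.1, 91.1 and 42.2 FPKM in CWR22Rv1 cells. No other accessory gene reached 2-fold except PSTK with APO in CWR22Rv1 cells. EEF1E1, the third scaffold protein of the multisynthetase complex, was at 46.1, 49.0 and 37.7 FPKM and at 28.4, 31.4 and 23.8 FPKM. GATB and GATC, subunits of the amidotransferase that makes glutaminyl-tRNA in mitochondria, stayed below 1.2-fold in each comparison.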

How the data were processed

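RNA-seq libraries of 6 conditions, 1 per condition, were grouped by sample title. The submitters' processing notes and the methods of the study name HISAT, Cufflinks, Cuffnorm and GRCh38, and the authors deposited FPKM per gene from paired-end reads. Tool versions and the annotation release are not given in the sources used here. The labels describe a stranded kit and the methods another kit, and use of strand in quantification is not stated. FPKM values are not counts, so no test on counts was made and depth is known only as a ratio.

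Identifiers were matched to current symbols (56550 of 60658, all 37 members), and gene coordinates are those of GENCODE 29. A pseudocount of 0.1, which understates changes of low genes, was used. The members and lists were chosen with earlier results of these data known. Values in all libraries are given for members with the most extreme or smallest changes, for subunits, scaffolds and pairs. Genes of other lists and neighbors (DTD1, EEF1E1, IRF1, DDIT3, EIF2AK1) were named after their values were seen, and the share over genes above 5 FPKM was added after seeing the data. Alternatives were pseudocounts of 0.01 and 1, other filters, 3 rescalings, the cytosolic list without GARS1, KARS1, AIMP1 and AIMP2 and folds of 1.5 and 2. Fold functions were tested on simulated data. Python 3.11.15, pandas 2.3.3, numpy 2.4.6 and matplotlib 3.10.9 were used.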

Additional observations from a re-analysis of the deposited data

Results flagged for a closer look

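Among the members and the accessory genes, PSTK and QRSL1 were called in opposite directions in the lines with the same inhibitor. PSTK, the kinase that prepares seryl-tRNA for selenocysteine, had log2 fold changes with APO of -0.29 for C4-2B MDVR and 1.27 for CWR22Rv1, from levels of 9.67 and 1.51 FPKM with DMSO. QRSL1, a subunit of the mitochondrial glutamine amidotransferase, had values of -0.36 and 0.44. The difference between the lines was not tested, since each condition has 1 library.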

How the results depend on the processing

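No paired analysis was possible because each condition has 1 library and the labels carry no replicate numbers, and no library could be left out. Of 168 list results under an alternative 154 kept their place, 14 moved and 0 turned direction. Of 1036 results of single members 31 crossed 1.2-fold or moved by more than that, and 0 of those called turned direction. With the same sum without the mitochondrial chromosome, the mitochondrial median with APO in CWR22Rv1 cells was -0.38 and 11 genes were lower, beside 45.0% of all compared genes lower on that scale. At 1.5-fold 4 and 6 mitochondrial genes were lower with APO and VER for C4-2B MDVR and 5 with VER in CWR22Rv1 cells, beside 23.1%, 22.4% and 17.5% of all compared genes, and 3 cytosolic genes were higher in the last, beside 19.1%. At 2-fold 7 and 6 cytosolic genes were higher with APO and VER for C4-2B MDVR and 7 and 1 in CWR22Rv1 cells. Of all compared genes 15.4%, 14.4%, 13.8% and 10.8% were higher by that margin. In the same order 0 and 0, then 1 and 1 mitochondrial genes were lower, beside 13.3%, 13.3%, 16.8% and 8.92% of all compared genes. The stricter fold itself lowers these counts. The difference between the cytosolic and mitochondrial medians lay between 0.59 and 1.19 over the 4 comparisons of an inhibitor with DMSO and their alternatives. Scaling to the same sum put the median of genes above 1 FPKM at -0.13 for APO in C4-2B MDVR, and without the mitochondrial chromosome to -0.17 with APO in CWR22Rv1 cells.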

Other observations

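Some neighbors of the members on the opposite strand also differed. WDR25, which shares 287 exonic bases with WARS1, was at 4.15, 10.7 and 8.79 FPKM with DMSO, APO and VER for C4-2B MDVR and at 4.10, 9.32 and 5.76 FPKM in CWR22Rv1 cells. TERF2IP, which shares 176 exonic bases with KARS1 and encodes a protein of the telomere complex, was at 47.0, 63.0 and 62.7 FPKM and at 39.1, 81.2 and 50.4 FPKM. MRPS12, a mitochondrial ribosomal protein gene that shares 349 exonic bases with SARS2, was at 107, 81.8 and 85.6 FPKM and at 58.3, 43.4 and 44.1 FPKM, lower with each inhibitor. These genes were named after their values were seen.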
